A study of Rattus norvegicus with 42 samples.

Results

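The 10 genes Csrp1, Actb, Actg1, Acta2, Tagln, Myl9, Tpm1, Flna, Vcl and Srf of the actin cytoskeleton were followed through 3 readouts of rat liver: occupancy by the glucocorticoid receptor (GR), occupancy by RNA polymerase II phosphorylated at serine 2 of its C-terminal domain (pSer2 Pol2, the elongating form) and RNA. They are 10 of 26255 gene names in the pSer2 Pol2 data, and each was found by its name alone. They hold 30 of the 60999 pSer2 Pol2 regions, and 2 of the 3981 GR regions are centred within 50 kb of one of their start sites. Csrp1 heads the list because it was chosen by its values in these same libraries, so its CORT against vehicle values are given as a description with no test. The other members were named beside it as actin genes with results of these data already known.

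All animals were adrenalectomised male Sprague Dawley rats, and so lacked the main source of corticosterone (CORT), in the vehicle groups too. CORT was infused intravenously as an HBC complex, either as hourly pulses (PULS) or constantly (CONS), with the hourly dose matched. For ChIP-Seq, livers were taken at the peak of the third pulse at 140 min (PEAK_140), at its nadir at 180 min (NADIR_180), and at the same times of constant infusion (CONS_140, CONS_180). The ChIP-Seq control was a pulsatile vehicle infusion (VEH), with 1 library at 140 min and 1 at 180 min for each antibody. Each of the 5 ChIP groups had 2 libraries per antibody, and each library pooled the livers of 6 rats. RNA-Seq was done at 180 min in 4 groups of 3 libraries, PULS CORT, PULS VEH, CONS CORT and CONS VEH, so that each infusion pattern had a vehicle group of its own. Nothing in the labels says which rats gave each RNA library, and the p-values measure the spread between these libraries. Each RNA title carries a number whose meaning is not given, and every CORT library has a lower number than every vehicle library. Whatever the numbers stand for cannot be told apart from CORT here.

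Actin is the monomer from which cells build their filaments. Actb and Actg1 encode the cytoplasmic actins of most cells, Acta2 the actin of smooth muscle and of activated stellate cells, and Tpm1 a tropomyosin that lies along the filament. Myl9 encodes a regulatory light chain of non-skeletal myosin, Tagln (transgelin, SM22) and Flna (filamin A) encode proteins that bind or cross-link filaments, and Vcl (vinculin) ties them to adhesion sites. Csrp1 encodes a LIM domain protein found on actin bundles. Srf encodes serum response factor, which binds the CArG box and, with cofactors that are held back by free actin monomers, drives many of the genes just named. In a liver, the smooth muscle genes of this list are known mostly from vessel walls and stellate cells rather than from hepatocytes, and whole tissue cannot tell a change in the number of such cells from a change in the RNA of each.

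Depth was 3956379 to 7777219 reads per RNA library, 4938473 to 9326927 tags per pSer2 Pol2 library and 2051977 to 6715803 tags per GR library. Of 7 hepatocyte markers 6 had a row, led by Alb, and took 134100 to 181700 CPM (a gene's share of a library's reads, scaled by TMM factors) in sum. Summed over their lists, stellate cell markers took 525 to 836 CPM, sinusoidal endothelial markers 256 to 360 CPM, Kupffer cell markers 271 to 497 CPM, neutrophil and blood markers 85.1 to 205 CPM, smooth muscle markers 33.4 to 49.9 CPM and cholangiocyte markers 8.43 to 15.8 CPM. Col1a2, Cd5l and Krt19 had no reads in any RNA library. Pecam1, Ahsg and Hba-a1 had no row under those names. Reads per library ran from 1001 to 2303 for Actb and from 364 to 761 for Actg1. They fell to 5 to 34 for Acta2, 10 to 56 for Myl9, 19 to 71 for Tagln and 23 to 40 for Srf, so that differences of those 4 genes rest on few reads. The 3 actin genes encode near-identical proteins, and some reads may match another of them or copies elsewhere. The split between them can then depend on how reads with several matches were counted, which was not measured here. CPM is not corrected for gene length and was compared only within a gene.

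Promoter sequences are shown for the 3 members whose RNA passed the threshold in a comparison and for Srf, because the CArG box is the sequence through which the SRF protein acts. RefSeq holds a window of 300 bases, 250 of them before the start site, for 7 of the 10 members on the GRCr8 assembly, which is a newer build than the rn6 of the data. The 250 bases before the start are printed 5′ to 3′ on the gene's own strand. Capitals mark a CArG box (exactly CCWWWWWWGG, where W is A or T) or a GR half-site (AGAACA on either strand).

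Csrp1, chr13:49709678-49709927, + strand: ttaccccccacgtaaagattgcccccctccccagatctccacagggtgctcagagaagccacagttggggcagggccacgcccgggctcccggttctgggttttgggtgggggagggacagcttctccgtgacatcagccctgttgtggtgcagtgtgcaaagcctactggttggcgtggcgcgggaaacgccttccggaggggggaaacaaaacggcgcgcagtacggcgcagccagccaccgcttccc
Actg1, chr10:106120952-106121201, - strand: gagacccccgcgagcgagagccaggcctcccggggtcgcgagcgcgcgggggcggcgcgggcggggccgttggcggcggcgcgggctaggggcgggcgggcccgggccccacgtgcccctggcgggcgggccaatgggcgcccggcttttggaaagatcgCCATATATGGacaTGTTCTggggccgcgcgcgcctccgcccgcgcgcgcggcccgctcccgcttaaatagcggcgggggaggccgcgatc
Tpm1, chr8:76543416-76543665, - strand: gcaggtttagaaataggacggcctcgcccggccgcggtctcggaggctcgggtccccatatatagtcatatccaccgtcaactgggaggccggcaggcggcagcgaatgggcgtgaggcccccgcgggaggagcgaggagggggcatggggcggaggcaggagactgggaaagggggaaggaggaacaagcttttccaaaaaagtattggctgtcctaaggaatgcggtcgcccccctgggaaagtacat
Srf, chr9:21923826-21924075, + strand: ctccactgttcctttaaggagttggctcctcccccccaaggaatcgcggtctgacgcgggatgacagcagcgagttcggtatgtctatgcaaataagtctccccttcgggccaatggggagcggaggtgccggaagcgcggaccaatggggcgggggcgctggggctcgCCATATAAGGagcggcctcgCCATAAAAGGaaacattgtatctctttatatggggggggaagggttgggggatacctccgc

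The Actg1 window holds 1 CArG box that begins 90 bases before the start, with a GR half-site beginning 77 bases before it. The Srf window holds 2 CArG boxes, 81 and 61 bases before the start. No exact CArG match and no half-site were found in the windows of Csrp1, Acta2, Tpm1, Flna or Vcl. A pair of half-sites written ACANNNTGT was in none of the 7. Stretches that depart from the exact CArG pattern, such as ccctatatgg in the Acta2 window, were not counted. Over all 33469 RefSeq windows of the same length, 1.64% hold a CArG box, 20.7% the half-site and 6.86% the pair. A match of letters is a description of the sequence and says nothing of whether a factor bound it.

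To see whether the pattern of CORT mattered for these genes, RNA was first compared with the vehicle of the same pattern. Csrp1 stood at 30.7, 27.03 and 32.2 CPM in the 3 CONS CORT libraries and at 67.4, 76.0 and 79.1 CPM in the 3 CONS VEH libraries. Every CONS CORT library was therefore below every CONS VEH library, with group means of 29.98 ± 2.68 and 74.2 ± 6.05 CPM (SD, n = 3) and a fitted difference of -1.31 ± 0.14 (SE) on the log2 scale, or 2.48-fold lower. In the pulsatile pattern Csrp1 stood at 53.9, 52.7 and 44.3 CPM with CORT and at 43.8, 48.9 and 64.1 CPM with vehicle. These groups overlapped, and the fitted difference was -0.05 ± 0.14 (SE). The vehicle groups also lay apart, since all 3 CONS VEH libraries were above all 3 PULS VEH libraries, with PULS VEH lower by a fitted -0.51 ± 0.14 (SE). With both vehicle groups left out of the contrast, Csrp1 in CONS CORT was -0.75 ± 0.15 (SE) against PULS CORT on the log2 scale, compared with -1.26 ± 0.20 (SE) for the difference of the vehicle-corrected responses. The former value has the same sign and leaves the gap between the vehicle groups out.

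**Figure D1:**
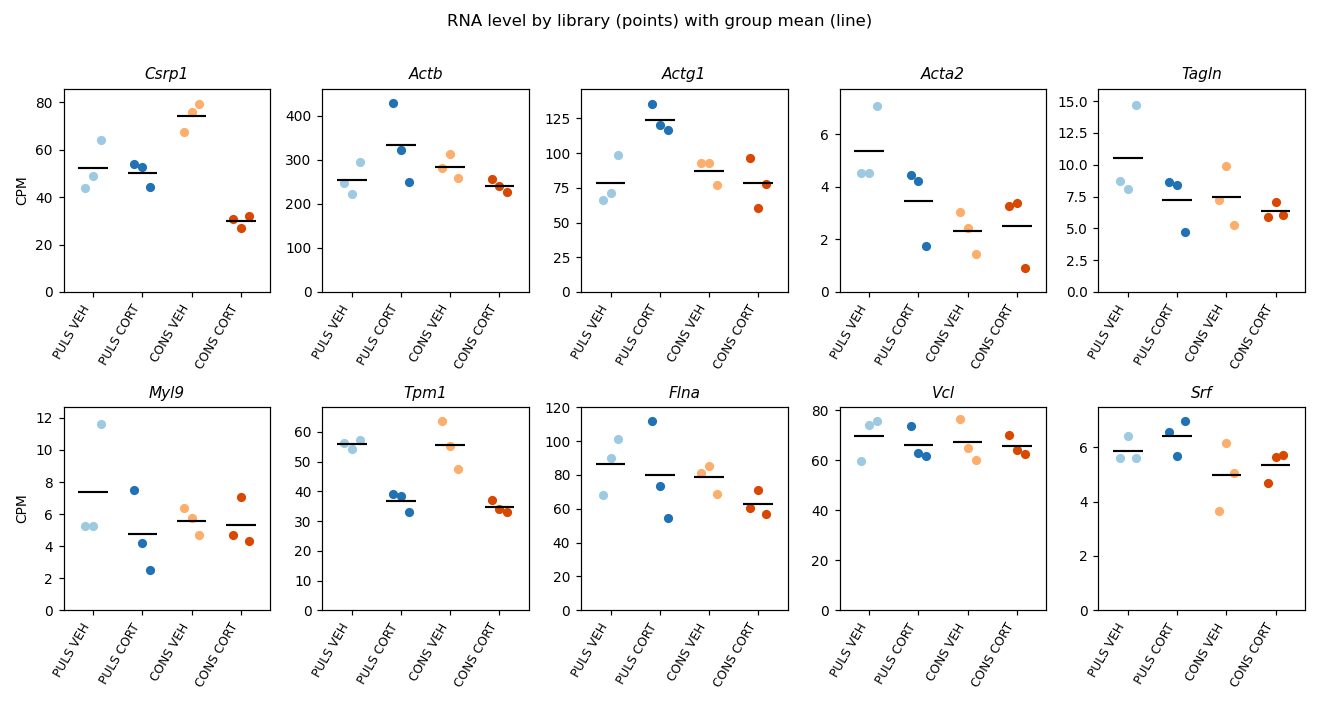
RNA of the 10 members in CPM (vertical axis, from 0, its own scale per gene) for the 3 libraries of PULS VEH, PULS CORT, CONS VEH and CONS CORT (horizontal axis), each point 1 library and each line a group mean. Csrp1 is lowest in CONS CORT at 27.03 to 32.2 CPM, Tpm1 is below vehicle in both patterns, and Actg1 is highest in PULS CORT at 116 to 136 CPM.

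Tpm1 was lower with CORT in both patterns. It stood at 39.1, 38.3 and 33.1 CPM in PULS CORT against 56.3, 54.4 and 57.3 CPM in PULS VEH, and the groups did not overlap. It fell by 0.60 ± 0.12 (SE) on the log2 scale (1.52-fold lower, edgeR adjusted p = 0.00951). In the constant pattern Tpm1 stood at 37.2, 34.1 and 32.96 CPM with CORT and at 63.6, 55.3 and 47.6 CPM with vehicle, again without overlap. It fell by 0.68 ± 0.12 (1.61-fold lower, edgeR adjusted p = 0.00126). The responses of Tpm1 to the 2 patterns differed by -0.08 ± 0.17 (SE), which did not pass the test (edgeR adjusted p = 0.899), and the 2 vehicle groups were nearly level, at 56.0 ± 1.47 and 55.5 ± 8.02 CPM (SD, n = 3). The fall of Tpm1 sits close to the 1.5-fold limit, and without PULS CORT replicate 3 (-0.53) or CONS VEH replicate 1 (-0.57) it no longer exceeded that limit.

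The cytoplasmic actins did not follow Tpm1. Actg1 stood at 136, 120 and 116 CPM in PULS CORT and at 65.9, 71.6 and 98.3 CPM in PULS VEH, so all 3 CORT libraries were above all 3 vehicle libraries. It rose by 0.66 ± 0.17 (SE) on the log2 scale (1.58-fold, edgeR adjusted p = 0.0324). In the constant pattern Actg1 stood at 96.3, 60.4 and 77.9 CPM with CORT and at 93.0, 92.6 and 76.7 CPM with vehicle, which overlap, and its difference of -0.17 ± 0.17 was not called (edgeR adjusted p = 0.607). The responses of Actg1 differed between patterns by -0.83 ± 0.24, with edgeR adjusted p = 0.149, whereas DESeq2 gave an adjusted p of 0.0423 for the same difference. The rise of Actg1 lost its call when any 1 of 5 of the 6 PULS libraries was left out, with differences of 0.55 to 0.70 and adjusted p of 0.0565 to 0.123, and kept it only without PULS VEH replicate 3.

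Actb moved the same way as Actg1 without passing the test. Its levels were 429, 322 and 249 CPM in PULS CORT against 247, 222 and 294 CPM in PULS VEH. The group means were 333 ± 90.7 and 254 ± 36.8 CPM (SD, n = 3), the groups overlapped, and the difference of 0.39 ± 0.17 had an edgeR adjusted p of 0.197. The difference was 0.17 without PULS CORT replicate 1 and 0.56 (adjusted p = 0.0577) without PULS CORT replicate 3. In the constant pattern Actb stood at 257, 240 and 226 CPM with CORT and at 281, 312 and 258 CPM with vehicle (-0.24 ± 0.17, edgeR adjusted p = 0.417).

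The smooth muscle genes of the list gave no call. Acta2 had 4.43, 4.20 and 1.74 CPM in PULS CORT against 4.53, 4.53 and 7.05 CPM in PULS VEH (-0.60 ± 0.40, edgeR adjusted p = 0.448), and 3.25, 3.38 and 0.896 CPM in CONS CORT against 3.05, 2.43 and 1.45 CPM in CONS VEH (0.10 ± 0.45, adjusted p = 0.931). Tagln differed by -0.51 ± 0.28 in the pulsatile pattern (8.66, 8.41 and 4.72 CPM against 8.70, 8.12 and 14.7 CPM) and by -0.21 ± 0.29 in the constant one (means of 6.34 and 7.46 CPM). Myl9 differed by -0.58 ± 0.37 (7.51, 4.20 and 2.49 CPM against 5.25, 5.29 and 11.6 CPM) and by -0.06 ± 0.36 (means of 5.34 and 5.60 CPM). PULS VEH replicate 3 held the highest value of Acta2, Tagln and Myl9 among the 12 libraries, and PULS CORT replicate 3 the lowest value of Tagln and Myl9. Without PULS VEH replicate 3 the pulsatile differences shrank to -0.37 for Acta2, -0.20 for Tagln and -0.11 for Myl9. Summed smooth muscle markers, led by Synpo2, took 34.6 to 37.3 CPM over the 3 PULS VEH libraries, and their part in these values was not tested.

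Flna, Vcl and Srf, which anchor, link or direct the filaments, showed no call either. Flna stood at 112, 73.4 and 54.7 CPM in PULS CORT and 67.9, 90.1 and 101 CPM in PULS VEH (-0.10 ± 0.20, edgeR adjusted p = 0.840), and at 60.5, 71.1 and 56.8 CPM in CONS CORT against 81.4, 85.3 and 68.8 CPM in CONS VEH (-0.32 ± 0.20, adjusted p = 0.369). Vcl had group means between 65.7 and 70.0 CPM and differences of -0.08 ± 0.13 and -0.04 ± 0.13. Srf ran from 3.67 to 6.96 CPM over the 12 libraries, with differences of 0.12 ± 0.22 and 0.15 ± 0.22.

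**Figure D2:**
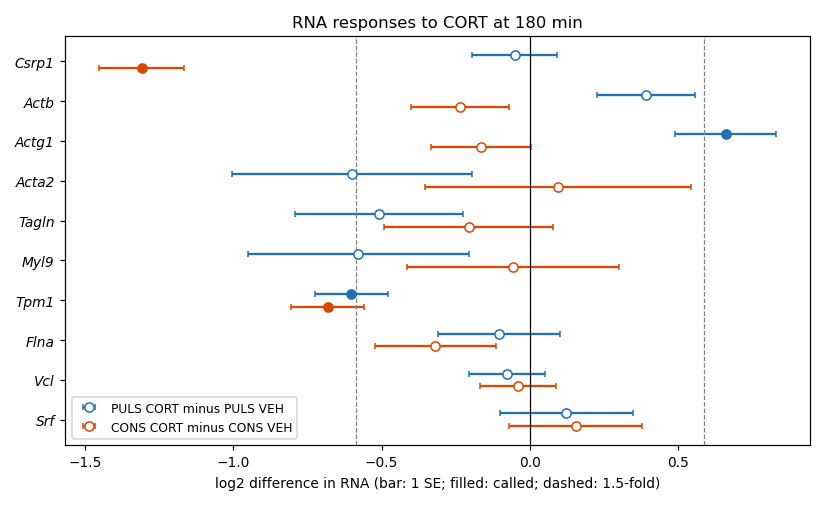
Log2 difference in RNA between CORT and the vehicle of the same pattern (horizontal axis) for each member (vertical axis), in blue for PULS and in orange for CONS, with bars of 1 SE, filled points for calls and dashed lines at 1.5-fold. The orange point of Csrp1 at -1.31 lies far from its blue point at -0.05, whereas the Tpm1 points at -0.60 and -0.68 lie together.

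Calls needed more than 1.5-fold change (0.585 on the log2 scale) and a p below 0.05 after Benjamini-Hochberg adjustment over the 14092 genes tested. By this rule 2 of 10 members were called in the pulsatile pattern, Actg1 higher and Tpm1 lower, where 4.23% of all genes were called. In the constant pattern Tpm1 was called lower, 1 of the other 9 members, where 9.20% of all genes were called. For the difference of the 2 responses edgeR called 0 of the other 9 members and 0.0284% of all genes. By edgeR 2 of these 9 had an unadjusted p below 0.05, beside 12.4% of all genes. DESeq2 called 1 of the 9, Actg1, and its share over all genes was not computed. Csrp1 lay past both limits in these 2 comparisons, which is part of why it was listed, and nothing is read from that. PULS VEH against CONS VEH gave 0 of 10 members and 0% of genes by edgeR and also 0 members by DESeq2. By edgeR 2 members, Csrp1 and Acta2, had an unadjusted p below 0.05 there, beside 9.13% of all genes. The median difference of the members was -0.09 in the pulsatile and -0.19 in the constant pattern, beside -0.01 for all genes in both.

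Transcription was then read from pSer2 Pol2, counted by the authors over each gene up to 10 kb from its start and given on a log2 scale. For each member the region that starts at the gene's own start was used, and the values are compared only within a gene. The 4 comparisons against VEH share the same 2 VEH libraries, as they do for GR. Without a replicate block, limma called no member in any of the 7 pSer2 Pol2 comparisons, and with the block it called 1, Actb, for PEAK_140 against CONS_140, where 1.97% of gene regions were called. The share of gene regions called was 0.910% for PEAK_140, 0.00615% for NADIR_180, 0.775% for CONS_140 and 0.209% for CONS_180, each against VEH, 0.443% for PEAK_140 against NADIR_180, 0.0246% for PEAK_140 against CONS_140 and 0.0430% for the difference of the time effects between patterns. In the same order 3, 0, 3, 0, 2, 3 and 4 of the 10 members had an unadjusted p below 0.05, beside 4.77%, 1.37%, 5.92%, 2.75%, 5.39%, 8.79% and 6.43% of gene regions. Csrp1 is 1 of the 3 in PEAK_140 and 1 of the 3 in CONS_140, each against VEH. It was chosen by its values in these libraries, and nothing is read from its place there. The median of all gene regions was itself shifted by 0.15 in CONS_140 against VEH and by -0.26 in PEAK_140 against CONS_140, and the members' differences should be read against that.

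**Figure D3:**
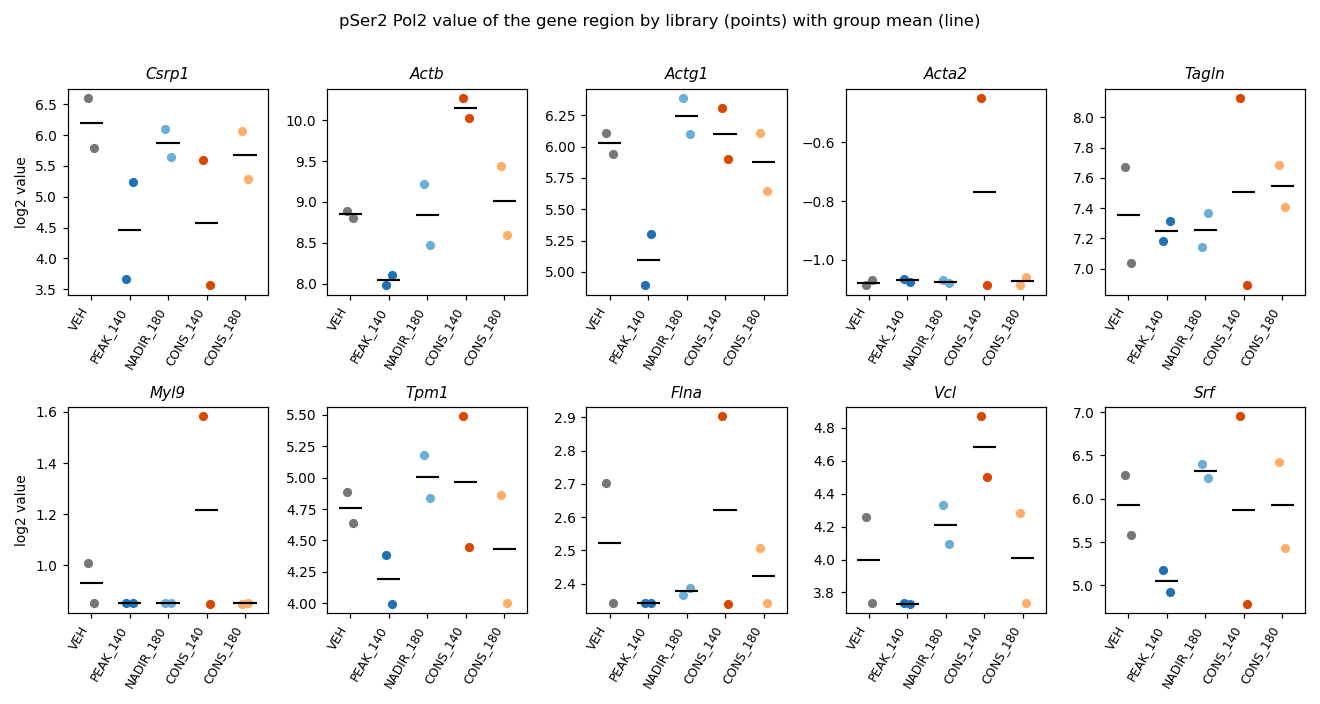
pSer2 Pol2 value of the region of each member on a log2 scale (vertical axis, its own scale per gene) for the 2 libraries of each ChIP group (horizontal axis), each point 1 library and each line a group mean. Actb separates most clearly, with PEAK_140 at 7.98 and 8.11 below VEH and CONS_140 at 10.27 and 10.02 above it, while Acta2 and Myl9 lie at their lowest value in nearly all libraries.

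Csrp1 (rn6 chr13:52553775-52563775, + strand) had log2 values of 6.60 and 5.79 in VEH, 3.67 and 5.25 in PEAK_140, 6.09 and 5.64 in NADIR_180, 5.60 and 3.56 in CONS_140, and 6.07 and 5.30 in CONS_180. Both 140 min groups lay below both VEH libraries, by -1.74 ± 0.67 (SE) and -1.61 ± 0.67, but 1 library of each pair was far below the other, and neither difference was called. At 180 min the differences were -0.33 ± 0.67 and -0.51 ± 0.67, with overlapping values. PEAK_140 and CONS_140 differed by -0.13 ± 0.67 (limma adjusted p = 0.893). Csrp1 RNA at 180 min was apart from vehicle in the constant pattern, while pSer2 Pol2 at 140 min was below VEH in both patterns.

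Actb (chr12:13715843-13718841, + strand) had replicates that lay close together in VEH, PEAK_140 and CONS_140. It stood at 8.89 and 8.81 in VEH, 7.98 and 8.11 in PEAK_140, 9.22 and 8.47 in NADIR_180, 10.27 and 10.02 in CONS_140, and 9.44 and 8.59 in CONS_180. At 140 min it was therefore below VEH in both pulsatile libraries and above VEH in both constant ones, with differences of -0.81 ± 0.36 (limma adjusted p = 0.984) and 1.30 ± 0.36 (adjusted p = 0.237). PEAK_140 was -2.11 ± 0.36 against CONS_140 (4.30-fold lower), with a limma adjusted p of 0.0711. With the replicate number as a block over the 8 CORT libraries the same difference had an adjusted p of 0.0347, and it was called as well when libraries were centred on their medians (-1.87, adjusted p = 0.0199). It was not called with quantile normalization (-1.59, limma adjusted p = 0.0845) or with a prior variance that did not follow the mean (adjusted p = 0.0857). Nor was it called when only the libraries of these groups were fitted (adjusted p = 0.605). The change of the time effect between patterns was -1.93 ± 0.52 for Actb (limma adjusted p = 0.314).

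Actg1 (chr10:109519134-109520846, - strand) was low at the pulse peak as well. Its values were 6.11 and 5.94 in VEH, 4.89 and 5.30 in PEAK_140, 6.39 and 6.10 in NADIR_180, 6.30 and 5.90 in CONS_140, and 6.11 and 5.65 in CONS_180, so both PEAK_140 libraries were below all 8 others. The differences of PEAK_140 were -0.93 ± 0.34 against VEH (limma adjusted p = 0.586), -1.15 ± 0.34 against NADIR_180 (adjusted p = 0.339) and -1.01 ± 0.34 against CONS_140 (adjusted p = 0.325). The RNA of Actg1 at 180 min of the same pattern was higher than vehicle, the opposite sign to pSer2 Pol2 at the pulse peak. At the time of the RNA, pSer2 Pol2 in NADIR_180 differed from VEH by 0.22 ± 0.34. That difference has the same sign as the RNA, but the values overlapped and it was not called.

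Srf (chr9:16737642-16747225, + strand) stood at 6.28 and 5.59 in VEH, 5.18 and 4.93 in PEAK_140, 6.399 and 6.24 in NADIR_180, 6.95 and 4.79 in CONS_140, and 6.43 and 5.44 in CONS_180. PEAK_140 was below VEH and below NADIR_180 in both libraries, with differences of -0.88 ± 0.60 (limma adjusted p = 0.999) and -1.26 ± 0.60 (adjusted p = 0.968). Vcl (chr15:3534702-3544702, - strand) stood at 4.26 and 3.73 in VEH, 3.73 and 3.73 in PEAK_140, and 4.87 and 4.50 in CONS_140. The lowest value of its region, 3.73, was shared by 4 of 10 libraries within 0.05. Its difference between PEAK_140 and CONS_140 was -0.95 ± 0.31 (limma adjusted p = 0.316).

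Tpm1 (chr8:72832228-72842228, - strand), whose RNA fell in both patterns, stood at 4.89 and 4.64 in VEH, 4.39 and 4.00 in PEAK_140, 5.18 and 4.84 in NADIR_180, 5.49 and 4.45 in CONS_140, and 4.86 and 4.01 in CONS_180. Only PEAK_140 lay below both VEH libraries in both of its own (-0.57 ± 0.41, limma adjusted p = 0.999). Tpm1 starts at several promoters and has 9 rows over 3 windows. In the window chr8:72826159-72836159 the PEAK_140 difference was -1.60 (adjusted p = 0.223), and in chr8:72831496-72841496 it was -0.85 (adjusted p = 0.999).

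Tagln (chr8:50222896-50231357, - strand) lay between 6.89 and 8.13 in all 10 libraries, and its differences from VEH ran from -0.10 to 0.19, each with an SE of 0.42. Acta2 (chr1:252540394-252550394, - strand), Myl9 (chr3:152857592-152863960, + strand) and Flna (chrX:156463953-156473953, + strand) gave almost no signal. For Acta2 9 of 10 libraries, for Myl9 8 and for Flna 7 were within 0.05 of the lowest value of the region, which was -1.09, 0.85 and 2.34.

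One library decided much of what was seen in the constant pattern at 140 min. Over all gene regions, the median of CONS_140 against VEH was 0.154 with both CONS_140 libraries and 0.424 without replicate 2. The gap between these libraries was thus not limited to the members, and the share of all regions lower in replicate 2 was not computed. CONS_140 replicate 2 was lower than replicate 1 for all 10 members, by 0.25 for Actb and by 2.16 for Srf. Without it, 6 of 10 members were called for PEAK_140 against CONS_140 (Actb, Actg1, Acta2, Myl9, Vcl and Srf, all lower at the peak), 6 for the difference of time effects (Actb, Actg1, Acta2, Myl9, Tpm1 and Srf) and 2 for CONS_140 against VEH (Acta2 and Myl9, both higher). In the same fit 22.5%, 20.2% and 14.9% of all gene regions were called in these comparisons, so calls rose far beyond the members. Without CONS_140 replicate 1 no member was called in those 3 comparisons. Acta2 and Myl9 were near their lowest value in every other library, so these 2 calls rest on CONS_140 replicate 1. Total tags were 9326927 for that library, the deepest of the 10, and 8923921 for replicate 2, and the part of either library in these calls was not tested.

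Within 50 kb of a start site there was 1 GR region at Actb and 1 at Tagln, or 2 of 10 members, beside 16.9% of all gene names. The nearest region lay 135 kb from the start of Vcl, 152 kb from Actg1, 157 kb from Tpm1, 289 kb from Acta2, 491 kb from Srf and 537 kb from Flna. For Csrp1 and Myl9 it lay 1650 and 1600 kb away.

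The Actb region (rn6 chr12:13713806-13714431, intergenic, 626 b) is centred 1.72 kb upstream of the gene. The authors' peak lists marked it as enriched in PEAK_140, CONS_140 and CONS_180. The study's motif search lists 2 stretches of 12 bases in it, both on the minus strand, shown because the region carries the GR calls of the list.
HNF4a heading: tgccccttgacc
FOXM1 heading: gaacattctggc

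GR at the Actb region stood at -0.76 and 0.42 in VEH, 3.82 and 3.69 in PEAK_140, 2.57 and -0.54 in NADIR_180, 4.78 and 0.49 in CONS_140, and 3.77 and 3.58 in CONS_180, on a log2 scale. Both PEAK_140 and both CONS_180 libraries were above both VEH libraries, whereas in NADIR_180 and CONS_140 only replicate 1 stood clearly above them. GR was higher than in VEH by 3.93 ± 1.41 (SE) in PEAK_140 (limma adjusted p = 0.0285) and by 3.85 ± 1.41 in CONS_180 (adjusted p = 0.0366). The differences of 2.81 ± 1.41 in CONS_140 (adjusted p = 0.110), 1.19 ± 1.41 in NADIR_180 (adjusted p = 0.746) and 2.74 ± 1.41 for PEAK_140 against NADIR_180 (adjusted p = 0.110) were not called. VEH values this low leave few tags after input was subtracted, so the fold changes are fitted values and not bounds. Each call was lost when 1 library of its own 2 groups was left out, at adjusted p of 0.0558 to 0.147.

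The Tagln region (chr8:50225378-50225773, 396 b) lies in intron 1 of 4 of the transcript, 5.78 kb into the gene and 2.79 kb from the nearest annotated start, and the peak lists marked it as enriched in PEAK_140 only. GR stood at 1.25 and -1.05 in VEH, 3.61 and -0.47 in PEAK_140, -0.82 and -0.67 in NADIR_180, 3.04 and 3.17 in CONS_140, and 3.75 and 2.51 in CONS_180. All 4 constant-infusion libraries were thus above both VEH libraries, while 1 PEAK_140 library was above both and the other lay between them. None of the differences from VEH was called, at 1.47 ± 1.30 for PEAK_140 (limma adjusted p = 0.316), -0.85 ± 1.30 for NADIR_180 (adjusted p = 0.841), 3.00 ± 1.30 for CONS_140 (adjusted p = 0.0694) and 3.03 ± 1.30 for CONS_180 (adjusted p = 0.0642). PEAK_140 against NADIR_180 differed by 2.32 ± 1.30 (adjusted p = 0.138). Without PEAK_140 replicate 2 the difference from VEH was 3.51, which was called (adjusted p = 0.0237), and without replicate 1 it was -0.57.

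**Figure D4:**
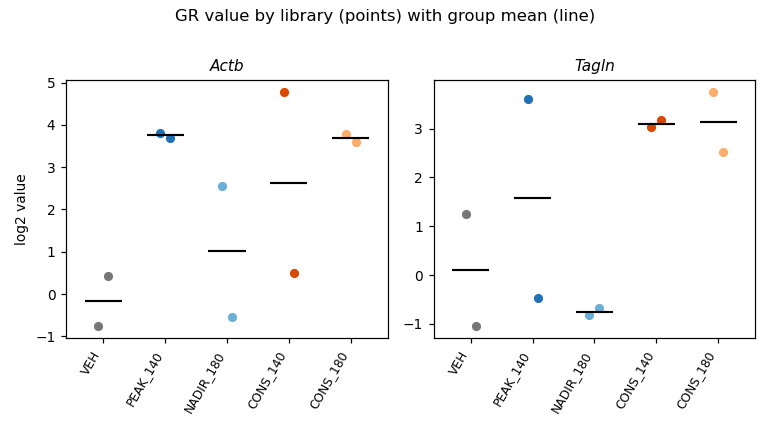
GR value on a log2 scale (vertical axis) at the regions near Actb and in Tagln for the 2 libraries of each ChIP group (horizontal axis), each point 1 library and each line a group mean. At Actb both PEAK_140 and both CONS_180 libraries exceed 3.5, and at Tagln the PEAK_140 libraries stand at 3.61 and -0.47.

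By count, 1 of the 2 regions was called in PEAK_140 against VEH, where 80.5% of all GR regions were called, and 1 of 2 in CONS_180 against VEH, where 68.2% were. No region of the 2 was called in CONS_140 (65.1% of all), in NADIR_180 (7.79%) or in PEAK_140 against NADIR_180 (69.3%). With no call, 1 of 2 had an unadjusted limma p below 0.05 in CONS_140, beside 68.3% of all GR regions. In NADIR_180 it was 0 of 2, beside 16.8%, and for PEAK_140 against NADIR_180 it was 0 of 2, beside 72.8%. Most GR regions rose with CORT, by a median of 4.17 in PEAK_140 and 3.46 in CONS_180, so the rise at Actb was near that of a typical region. Relative to the median of each library it was -0.69 and -0.21.

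Genes with group means most like those of Csrp1 were sought by the root mean square difference of centred group means. Over the 4 RNA groups (12 libraries, 14092 genes) they were Metrn, Zfp36l1, Mbp, RT1-N3 and Stac3, at 0.037 to 0.065 on the log2 scale. Metrn averaged at most 0.530 CPM in a group, and its place rests on a few reads. Zfp36l1, which encodes a protein that binds AU-rich RNA and promotes its decay, averaged 22.9 ± 3.58 CPM (SD, n = 3) in CONS CORT, 55.2 ± 5.30 in CONS VEH, 37.2 ± 6.13 in PULS CORT and 42.2 ± 1.61 in PULS VEH. Stac3 averaged 126 ± 30.9, 328 ± 94.8, 206 ± 13.1 and 238 ± 34.3 CPM in the same order. All 3 of Csrp1, Zfp36l1 and Stac3 had their highest group mean in CONS VEH and their lowest in CONS CORT. This follows from the choice of genes by these same group means, and nothing is read from it. Over the 5 pSer2 Pol2 groups (10 libraries, 16262 gene regions) the nearest were Cald1, Cpb2, Aox1, Znrf2 and Rgn, at 0.092 to 0.18. Cald1 encodes caldesmon, an actin-binding protein, and had group means of 6.43 in VEH, 4.85 in PEAK_140, 6.18 in NADIR_180, 4.77 in CONS_140 and 5.82 in CONS_180. Its CONS_140 libraries lay far apart, at 3.46 and 6.08. Cpb2, Aox1, Znrf2 and Rgn likewise had their lowest group means in PEAK_140 and CONS_140. Because all 5 were chosen by these same group means, nothing is read from that. No gene was among the 5 nearest in both readouts.

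Other genes of the actin machinery are given by list, beside 4.23% of all genes called in the pulsatile and 9.20% in the constant RNA comparison. An unadjusted p below 0.05 was found for 19.8% of all genes in the pulsatile and 25.3% in the constant one. Of 16 LIM and cross-linking genes with enough reads, none was called in RNA or in pSer2 Pol2 against VEH, and with an unadjusted p below 0.05 there were 0 in the pulsatile and 5 in the constant RNA comparison. Among 11 contractile and tropomyosin genes only Mylk, which encodes the myosin light chain kinase, was called. It stood at 379 ± 33.9 CPM in CONS CORT and 239 ± 58.3 CPM in CONS VEH (SD, n = 3), higher by 0.67 ± 0.15 on the log2 scale (edgeR adjusted p = 0.0082). Among 10 focal adhesion genes only Itga5, the integrin alpha 5 chain of the fibronectin receptor, was called, at 21.0 ± 5.38 against 50.8 ± 3.96 CPM in the constant pattern (-1.26 ± 0.20, edgeR adjusted p = 0.000502). Its pulsatile difference of -0.67 ± 0.20 had an adjusted p of 0.0624. Among 17 genes of actin assembly and turnover only Capg, which encodes a filament-capping protein, was called, at 6.54 ± 1.78 against 3.29 ± 0.754 CPM in the pulsatile pattern (1.00 ± 0.27, edgeR adjusted p = 0.0449) and on 12 to 44 reads per library. Of 7 immediate SRF targets 5 had enough reads, and none was called, with median differences of 0.79 and 0.81 in the 2 patterns and 1 unadjusted p below 0.05 in each.

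Markers of the cell types in which the smooth muscle genes are usually found were called in both directions, without a shared one. In CONS CORT against CONS VEH, where 9.20% of all genes were called, 2 of 6 smooth muscle markers were called in opposite directions, Synpo2 at 0.90 ± 0.19 (edgeR adjusted p = 0.00386) and Smtn, which encodes smoothelin, at -1.001 ± 0.19 (adjusted p = 0.00168). Of 9 stellate cell markers 3 were called. Dcn rose by 1.16 ± 0.34 (adjusted p = 0.0359) and Rgs5 by 1.30 ± 0.21 (adjusted p = 0.000668), while Pdgfrb, the PDGF receptor beta, fell by 1.29 ± 0.20 (adjusted p = 0.000348). Summed stellate cell markers, led by Col3a1, took 525 to 579 CPM in CONS CORT, below the 622 to 747 CPM of CONS VEH. In the pulsatile groups they took 553 to 760 against 666 to 836 CPM. This lower sum accompanied the lower Csrp1 of CONS CORT, and its part in that value was not tested. Summed Kupffer cell (323 to 368 against 280 to 497 CPM), endothelial (282 to 344 against 256 to 326 CPM) and smooth muscle markers (39.9 to 47.9 against 37.1 to 45.6 CPM) overlapped between CONS CORT and CONS VEH. No marker was called in the pulsatile RNA comparison, where 4.23% of all genes were.

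In pSer2 Pol2, Pdgfrb stood at 4.34 and 4.45 in PEAK_140 against 7.96 and 7.504 in VEH (-3.34 ± 0.52, limma adjusted p = 0.0112) and was back at 7.08 and 7.22 in NADIR_180. Ttr, a hepatocyte gene for the carrier of thyroxine and retinol, stood at 9.88 and 9.64 against 11.52 and 11.46 (-1.73 ± 0.26, limma adjusted p = 0.0101). These were the 2 calls among all listed genes outside the members in the 4 pSer2 Pol2 comparisons against VEH.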

How the data were processed

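RNA-Seq (12 libraries) and ChIP-Seq for GR and pSer2 Pol2 (10 libraries each, with 10 input libraries not used by themselves) were analysed from the deposited tables. The authors aligned reads to rn6. Per the labels, Trimmomatic 0.36, HOMER 4.9.1 and, for RNA, featureCounts 1.6.2 were used. Deposited RNA values are raw counts per Ensembl gene. Deposited ChIP values are log2 values per region and library after input subtraction, apparently regularised, so that low regions vary little; for GR the sources used here name both tags in regions and total tags as the scale. Columns of the authors' own fold changes and p-values, and the lists of peak positions, were not used. Gene names came from the pSer2 Pol2 table.

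ChIP values were compared over all 10 libraries of an assay in R 4.3.3 by limma 3.58.1 (moderated test, with the prior variance following the mean), over 38315 pSer2 Pol2 regions that were not 0 throughout and 3981 GR regions. Counts of genes with more than 10 reads over 12 libraries were compared with edgeR 4.0.16 (TMM, quasi-likelihood test, 1 fit). DESeq2 1.42.0 was an alternative. Adjusted p-values cover all genes or regions tested. SE is the model's standard error.

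The members and gene lists were chosen with earlier results of these data known. Named were all 10 members, every GR region within 50 kb of a member start, up to 4 called genes of each other list, and the 5 genes nearest to Csrp1 in each of RNA and pSer2 Pol2. The result of 1 gene list is not reported here. In pSer2 Pol2 the differences between replicates 1 and 2 of the 4 CORT groups were correlated across regions in all 6 pairs of groups (0.15 to 0.55), so the numbers were taken to pair the libraries; they did not in GR (-0.03 to 0.07) or RNA (-0.15 to 0.21). VEH libraries carry no number. Figures were drawn with matplotlib 3.10.9.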

Additional observations from a re-analysis of the deposited data

Results flagged for a closer look

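The fitted responses of Csrp1 RNA to the 2 infusion patterns differed by -1.26 on the log2 scale, and CONS CORT against PULS CORT directly, without the vehicle groups, by -0.75. The gene was listed with the first value known, and both are given as a description without a p.

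At 140 min, pSer2 Pol2 at Actb was below the VEH mean in both PEAK_140 libraries (-0.81) and above it in both CONS_140 libraries (1.30). The direct test of PEAK_140 against CONS_140 gave limma adjusted p = 0.0711 without a replicate block. With the replicate number as a block it gave limma adjusted p = 0.0347, and the difference was called. Quantile normalization (limma adjusted p = 0.0845) and a fit of only the libraries of these groups (limma adjusted p = 0.605) gave no call. Vcl also lay below the VEH mean in PEAK_140 (-0.26) and above it in CONS_140 (0.69), on a smaller scale. Its direct test without the block gave limma adjusted p = 0.316. In addition, 1 of its VEH libraries shared the lowest value of the region with both PEAK_140 libraries.

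GR at the Tagln region was below the VEH mean in both NADIR_180 libraries (-0.85) and above it in both CONS_180 libraries (3.03). Both NADIR_180 libraries (-0.82 and -0.67) lay between the 2 VEH libraries (1.25 and -1.05). The CONS_180 difference was below the median of 3.46 over all GR regions. With libraries centred on their medians, Tagln was -2.03 in NADIR_180 and -1.03 in CONS_180, each against VEH. The difference between the patterns was not tested.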

How the results depend on the processing

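Across all alternatives, 144 counts of called members stayed within 1.5 times the reported count and 34 did not. For RNA, with Csrp1 included, the edgeR count was 2 in the pulsatile comparison and ran from 0 to 2 when 1 library was left out. It was 2 in the constant one (1 to 2) and 1 for the difference of responses (0 to 1), for which DESeq2 gave 2. Csrp1 was 1 of the 2 in the constant comparison and the only member in the edgeR count for the difference. Since Csrp1 was chosen by its values in these libraries, nothing is read from how stable its part of these counts is. The replicate block gave the same RNA counts of 2, 2, 1 and 0. For pSer2 Pol2, leaving out 1 library gave 0 to 2 members for CONS_140 against VEH, 0 to 6 for PEAK_140 against CONS_140 and 0 to 6 for the difference of time effects. PEAK_140 against CONS_140 gave 1 member (Actb) with the replicate block, with libraries centred on their medians, and with only regions above the median of the means; the block changed no other call.

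For GR, leaving out 1 library gave 0 to 1 regions in PEAK_140, CONS_140 and PEAK_140 against NADIR_180, and 0 in CONS_180 in every case. Centring and quantile normalization gave 0 regions in PEAK_140 and CONS_180, and both remove the rise that nearly all GR regions share. With centring, Actb was -0.69 in PEAK_140, -1.31 in CONS_140, -0.21 in CONS_180 and -0.70 for PEAK_140 against NADIR_180, and Tagln was -3.15, -1.11, -1.03 and -1.12. With quantile normalization Actb was -0.55, -0.35, -0.10 and -0.63, and Tagln was -1.396, -0.31 and -0.16 in the first 3.

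Signs also turned among uncalled values. Acta2 RNA was -0.47 with CONS CORT set against PULS CORT directly. With 1 library left out, Tagln GR in PEAK_140 ran from -0.57 to 3.51 and Myl9 RNA of PULS VEH against CONS VEH from -0.10 to 0.57. In pSer2 Pol2, CONS_140 against VEH ran from -0.0094 to 0.63 for Acta2 and -0.0797 to 0.65 for Myl9. PEAK_140 against CONS_140 ran from -0.62 to 0.016 for Acta2, -0.73 to 0.0019 for Myl9, -0.56 to 0.0012 for Flna and -1.90 to 0.27 for Srf. The difference of time effects ran from -0.62 to 0.0188 for Acta2 and -0.73 to 0.0021 for Myl9. The direct comparison of CONS CORT with PULS CORT was chosen after seeing the data; the other alternatives were not. The cause of these changes was not tested. With 2 libraries a group, a left-out library leaves 1, assumed to vary like the other groups.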
